A study of Mus musculus with 47 samples.

Results

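The expression of 10 genes of serine and one-carbon metabolism was examined in the brains of 3xTg mice, a model of Alzheimer's disease, fed diets low in 1 branched-chain amino acid. The genes were taken by name: Phgdh, Psat1 and Psph, which make serine, Shmt1 and Shmt2, which split it, Srr, Slc1a4, Gldc, Mthfd2 and Mthfd1. All 10 were found among the 55416 gene identifiers of the count tables for males and females, and all 10 passed the filter on low counts in both sexes. Every mouse carried the 3 human transgenes of the line, APPSwe, tauP301L and PS1M146V, in the homozygous state, so no group without them entered the comparisons. Mice were started at 6 months of age on an amino acid-defined Control diet or on one low in isoleucine (the IleR diet), in leucine (LeuR) or in valine (ValR), and brains were collected after 9 months. Males gave 4 Control, 3 IleR, 3 LeuR and 4 ValR libraries and females 6 Control, 5 IleR, 6 LeuR and 6 ValR libraries. A further 10 male libraries named in the labels were not analysed here.

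Serine is made from a glycolytic intermediate by the successive action of Phgdh, Psat1 and Psph. In the brain this route is placed mainly in astrocytes, which pass serine on to neurons. Serine hydroxymethyltransferases, Shmt1 in the cytosol and Shmt2 in mitochondria, turn serine into glycine and hand a carbon unit to folate. Mthfd2 and Mthfd1 carry that unit on in mitochondria and in the cytosol, for purine and thymidylate synthesis and for methylation. Gldc is the decarboxylase of the glycine cleavage system. Srr converts L-serine into D-serine, a co-agonist of the NMDA receptor, and Slc1a4 exchanges serine and other small neutral amino acids across membranes. Several of these genes, Phgdh, Psat1, Shmt2 and Mthfd2 among them, are known targets of ATF4, the transcription factor induced when amino acids run short.

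The start sites of the members whose levels changed in IleR-fed or ValR-fed males, together with the member holding a match to the letters below, are shown to place the genes on the genome. The stretches run from 150 bases before to 10 bases after the RefSeq start (GRCm38.p6), read 5′ to 3′ on the strand of the gene. Capitals mark the letters TGATGNAA, a form of the CEBP and ATF response element, or TTNCATCA on the other strand.
Phgdh (chr3:98339960-98340119, minus strand): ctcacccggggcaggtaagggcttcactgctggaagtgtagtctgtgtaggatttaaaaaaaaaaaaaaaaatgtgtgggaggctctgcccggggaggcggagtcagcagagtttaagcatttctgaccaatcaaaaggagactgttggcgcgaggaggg
Shmt1 (chr11:60811256-60811415, minus strand): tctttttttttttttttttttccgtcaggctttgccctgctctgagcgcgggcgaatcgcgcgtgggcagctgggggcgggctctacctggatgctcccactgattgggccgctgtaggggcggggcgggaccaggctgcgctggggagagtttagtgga
Shmt2 (chr10:127522435-127522594, minus strand): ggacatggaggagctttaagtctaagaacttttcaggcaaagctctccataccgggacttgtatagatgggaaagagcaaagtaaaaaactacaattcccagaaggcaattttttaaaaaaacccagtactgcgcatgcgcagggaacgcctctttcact
Srr (chr11:74925939-74926098, minus strand): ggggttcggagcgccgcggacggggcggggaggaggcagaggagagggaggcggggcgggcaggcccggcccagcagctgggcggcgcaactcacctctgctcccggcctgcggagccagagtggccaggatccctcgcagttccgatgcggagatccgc
Slc1a4 (chr11:20332704-20332863, minus strand): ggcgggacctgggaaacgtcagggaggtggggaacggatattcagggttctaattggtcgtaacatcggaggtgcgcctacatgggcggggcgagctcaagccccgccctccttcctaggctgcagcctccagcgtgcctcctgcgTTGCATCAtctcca
Mthfd2 (chr6:83317595-83317754, minus strand): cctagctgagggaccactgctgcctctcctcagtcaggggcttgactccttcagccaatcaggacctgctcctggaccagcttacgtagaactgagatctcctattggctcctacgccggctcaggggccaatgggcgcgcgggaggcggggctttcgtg
Mthfd1 (chr12:76255082-76255241, plus strand): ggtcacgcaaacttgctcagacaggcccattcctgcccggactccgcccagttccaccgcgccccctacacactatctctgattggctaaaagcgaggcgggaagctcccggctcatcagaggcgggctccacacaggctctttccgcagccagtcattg

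Windows of 300 bases, from 250 before to 50 after the start, were searched for these letters on both strands. The 10 members had 11 such windows, since Psat1 has 2 listed starts. Only the window of Slc1a4 held the letters, on the strand opposite to the gene and across its start site, whereas 3.97% of all 32851 windows held them. A window without a match shows only that these letters are not in it.

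The libraries held between 12682663 and 25722301 counts in males and between 10672583 and 21370968 in females, and the lowest count of any member was 14, for Shmt1. Xist, expressed from the inactive X chromosome, was at most 0.51 CPM (counts scaled to library size) in males and at least 534 CPM in females. The 8 neuronal marker genes summed to between 4559 and 7758 CPM in every library. In males their sum was 5560 to 7319 CPM in Control, 4630 to 5377 CPM in IleR, 4559 to 6486 CPM in LeuR and 4962 to 6023 CPM in ValR, so IleR lay wholly below Control, and 2, 1 and 2 of the 8 fell and 1 rose in each diet. Of 8 microglia genes 2, 0 and 4 fell in IleR, LeuR and ValR by edgeR, and their sum was 378 to 457 CPM in Control, 324 to 487 CPM in IleR, 355 to 455 CPM in LeuR and 260 to 425 CPM in ValR. The part of these shifts in the members' values was not tested. The libraries differed in which part of the brain they held. A hindbrain score was formed as the mean log2 CPM of 20 genes typical of the cerebellum, brainstem or spinal cord, less that of 10 forebrain genes. Among males it lay between -8.51 and -4.40 in the Control group, between 1.16 and 3.56 in IleR, between -3.93 and 2.90 in LeuR and between 3.24 and 4.28 in ValR, so no restricted-diet male overlapped a Control-fed male. Among females it ran from -8.41 to 3.35 and the 4 diets overlapped. The summed level of the 10 cerebellar genes was 27.9 to 80.1 CPM in Control-fed males, against 1209 to 3226 CPM in IleR, 143 to 1219 CPM in LeuR and 1277 to 4199 CPM in ValR, and 9, 8 and 9 of the 10 rose in these diets. The 10 forebrain genes summed to 730 to 2521 CPM in Control-fed males, 148 to 268 CPM in IleR, 294 to 506 CPM in LeuR and 160 to 253 CPM in ValR. Of the forebrain genes 8, 4 and 8 fell, and no cerebellar or forebrain gene was at 0 throughout a male group. The diet and the part of the brain sampled therefore cannot be told apart in males by the group means, and values with the score in the fit are given with the members' results.

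Per kilobase of exon sequence, the genes of the first enzymes of the serine route had the highest RNA levels of the 10 members. Over the 23 female libraries Psat1 stood at 26.3 ± 3.34 and Phgdh at 26.0 ± 3.44 CPM per kb (mean ± SD), 2 levels that did not differ beyond their spread. Srr followed with 17.6 and Slc1a4 with 17.4 CPM per kb, again with overlapping ranges. Mthfd1 at 9.75, Shmt2 at 7.75, Gldc at 4.78, Psph at 3.65 and Mthfd2 at 3.20 CPM per kb came next. Shmt1 was the lowest at 0.502 CPM per kb, so of the 2 hydroxymethyltransferase genes the mitochondrial Shmt2 had the more abundant RNA. Across the females the highest library exceeded the lowest by 1.41-fold for Psph and 1.53-fold for Mthfd1, and by 4.11-fold for Shmt1. These levels are in bulk tissue, where fewer cells of a type and less RNA per cell cannot be told apart.

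In males, between 3 and 5 of the 10 members were called against the Control diet under each restricted diet, and in females 0 were called by edgeR. With the hindbrain score as a covariate 0 members were called in males. In IleR-fed males 4 of 10 members rose (Phgdh, Shmt2, Mthfd2 and Mthfd1) and 1 fell (Srr), by the quasi-likelihood F test of edgeR, Benjamini-Hochberg adjusted over 22197 genes. For comparison, 6.63% of all genes rose and 8.68% fell. In ValR-fed males 4 rose (Shmt1, Shmt2, Mthfd2 and Mthfd1) and Srr fell, against 11.1% and 12.4% of all genes. In LeuR-fed males Mthfd1 rose and Srr and Gldc fell, against 3.81% and 6.33% of all genes. Srr and Mthfd1 were the members that changed under all 3 diets. In the test of any difference among the 4 male diets, 6 members passed, against 19.3% of all genes: Srr, Shmt2, Mthfd1, Phgdh, Mthfd2 and Gldc, with adjusted p between 0.000380 and 0.0255 in edgeR.

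**Figure D1:**
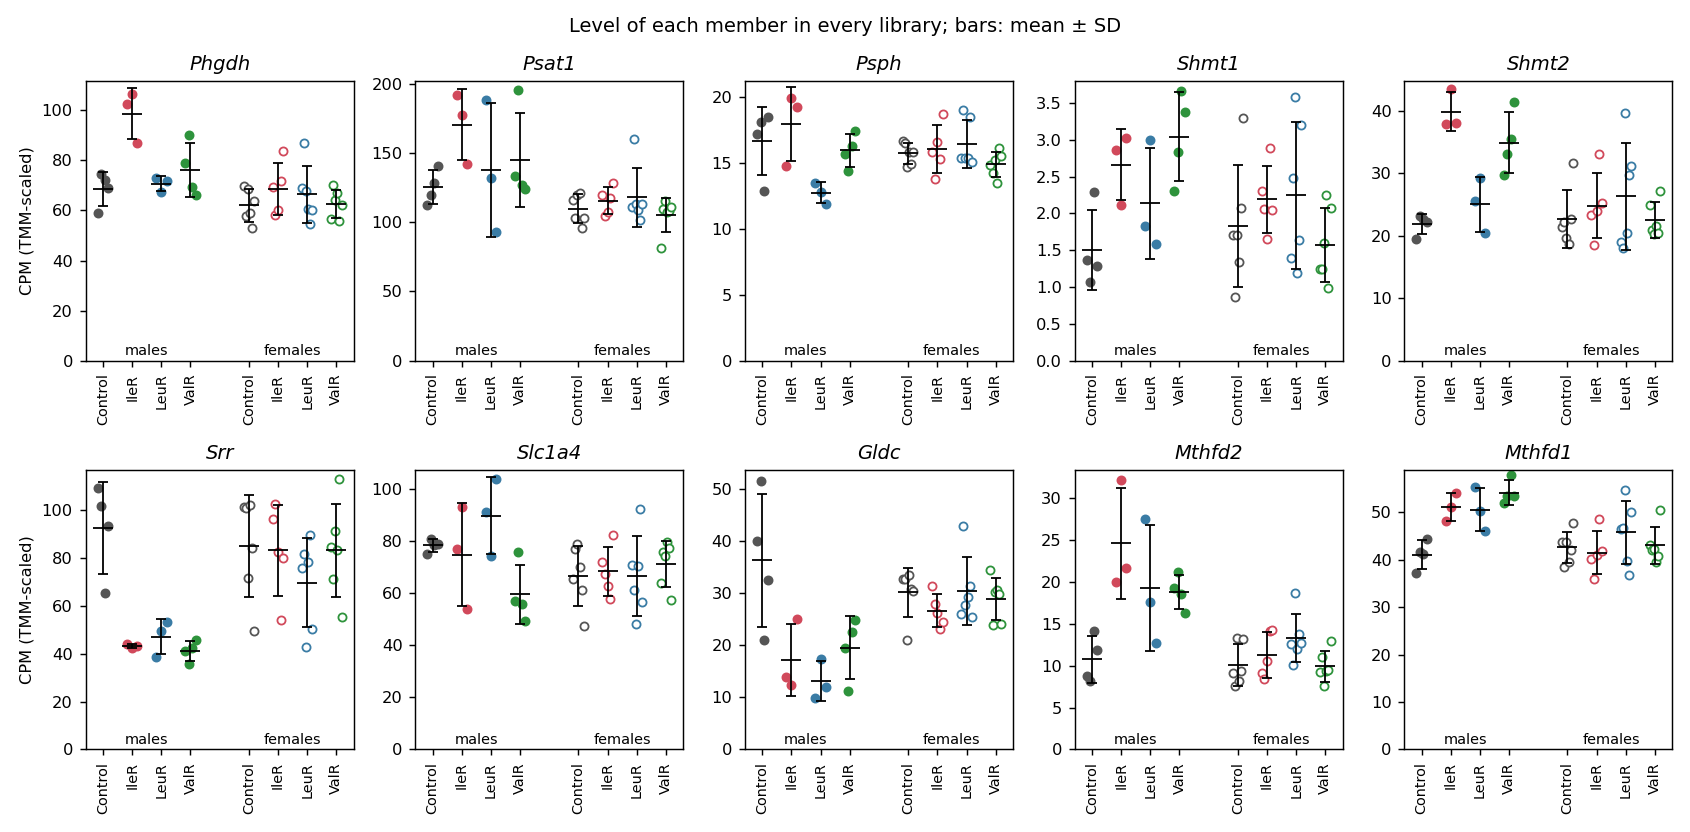
TMM-scaled CPM (y axis, from 0) of the 10 members in every library by diet (x axis), males as filled and females as open points, with the group mean ± SD as black bars. Srr in restricted-diet males lies between 35.8 and 53.1 CPM, below all 4 Control-fed males, and Phgdh in IleR-fed males lies at 86.9 CPM or more, above them.

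Groups were also compared by whether they overlapped. All IleR-fed males lay above all Control-fed males for 5 members, Psat1 included although it was not called, and below for 1, against 14.8% and 14.5% of all genes. In ValR these counts were 4 and 1, against 12.7% and 13.6%. In LeuR they were 1 and 2, against 8.21% and 9.48%. Leaving out 1 library moved the number of members called in IleR from 5 to 2 without IleR library 14 and in LeuR from 3 to 1 without Control library 1, Control library 3 or LeuR library 19. It moved that in LeuR to 5 without Control library 4, and that in ValR from 5 to 3 without Control library 1, Control library 3 or ValR library 10. Srr was called in each of the 14 fits that left out 1 male library, under all 3 diets.

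Of the 3 serine synthesis enzymes, Phgdh, the first of the route, rose in IleR-fed males, and Psat1 and Psph were not called against Control by edgeR with the 4 male diets in 1 fit. Phgdh (ENSMUSG00000053398, GRCm38 chr3:98313170-98339990) was at 58.8, 74.7, 71.9 and 68.9 CPM in Control-fed males and at 102, 106 and 86.9 CPM in IleR-fed males. LeuR-fed males had 73.1, 67.4 and 71.6 CPM and ValR-fed males 79.0, 90.3, 69.3 and 66.1 CPM. The IleR group was wholly above Control, the other restricted diets overlapped it. The IleR change was 1.44-fold (95% interval 1.21 to 1.71, log2 fold change 0.52 ± 0.12 SE, adjusted p = 0.00934 in edgeR), and without IleR library 14 its adjusted p was 0.0523. Its log2 fold change with the hindbrain score in the fit of males was 0.44 ± 0.27 (adjusted p = 0.904). The fold in LeuR was 1.03 (0.864 to 1.23) and in ValR 1.11 (0.942 to 1.31).

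Psat1, the aminotransferase that follows Phgdh, was at 113, 120, 128 and 141 CPM in Control-fed males and at 192, 177 and 142 CPM in IleR-fed males. All 3 IleR values were above Control, the lowest by under 1 CPM, and the 1.36-fold difference did not pass (95% interval 0.987 to 1.87, adjusted p = 0.187 in edgeR). LeuR-fed males spread widely, at 188, 132 and 92.7 CPM, and ValR library 9, at 196 CPM, stood apart from the other 3 at 124 to 133 CPM. Psph, the phosphatase of the last step, was at 12.9 to 18.5 CPM in Control-fed males and at 14.8 to 19.9 CPM in IleR, 11.9 to 13.5 CPM in LeuR and 14.4 to 17.5 CPM in ValR. In that fit the smallest adjusted p of Psph, 0.107, was that of the lower level in LeuR (log2 fold change -0.39 ± 0.15). With the hindbrain score in the fit of males the log2 fold changes of Psat1 were -0.36 ± 0.44, -0.48 ± 0.36 and -0.70 ± 0.49 in IleR, LeuR and ValR, and those of Psph 0.06 ± 0.36, -0.42 ± 0.28 and -0.11 ± 0.38. The LeuR value of Psph passed with both sexes in 1 fit (-0.36, adjusted p = 0.0379) and without Control library 4 (-0.49, adjusted p = 0.0214, both edgeR).

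Of the hydroxymethyltransferases, the mitochondrial Shmt2 rose in IleR-fed and ValR-fed males and the cytosolic Shmt1 in ValR-fed males, and neither passed in LeuR. Shmt2 (ENSMUSG00000025403, chr10:127517123-127522444) was at 19.5, 23.1, 22.7 and 22.3 CPM in Control-fed males and at 38.0, 43.5 and 38.2 CPM in IleR-fed males. In ValR it was at 29.7, 33.2, 35.4 and 41.4 CPM and in LeuR at 25.5, 29.2 and 20.4 CPM. The IleR and ValR groups were wholly above Control, and the LeuR group overlapped it. Shmt2 rose 1.82-fold in IleR (95% interval 1.49 to 2.22, adjusted p = 0.00151) and 1.59-fold in ValR (1.32 to 1.92, adjusted p = 0.00179), and the 1.14-fold value in LeuR did not pass (adjusted p = 0.395, all edgeR). It kept both calls in each of the 14 fits that left out a male library. Shmt1, the cytosolic enzyme, was at 1.36, 1.07, 2.29 and 1.29 CPM in Control-fed males and at 2.30, 2.83, 3.66 and 3.38 CPM in ValR-fed males, groups that met closely without overlap. It rose 2.03-fold in ValR (1.30 to 3.16, adjusted p = 0.0239 in edgeR), a call that was made in 9 of the 14 fits without 1 library. The IleR value of 1.77-fold did not pass (adjusted p = 0.0971). With the hindbrain score in the fit of males the log2 fold change of Shmt2 was 0.45 ± 0.30 in IleR and 0.21 ± 0.32 in ValR, and that of Shmt1 in ValR was 0.17 ± 0.78.

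Of the folate enzymes that receive the carbon unit, Mthfd2 rose in IleR-fed and ValR-fed males and Mthfd1 under all 3 diets. Mthfd2, the mitochondrial dehydrogenase and cyclohydrolase (ENSMUSG00000005667, chr6:83305691-83325908), was at 8.72, 8.17, 14.1 and 11.9 CPM in Control-fed males. It was at 20.0, 32.1 and 21.6 CPM in IleR, 27.4, 17.6 and 12.6 CPM in LeuR and 19.2, 21.1, 18.6 and 16.2 CPM in ValR. The IleR and ValR groups were wholly above Control, and 1 LeuR library lay inside the Control range. Mthfd2 rose 2.29-fold in IleR (95% interval 1.56 to 3.37, adjusted p = 0.00768) and 1.75-fold in ValR (1.22 to 2.52, adjusted p = 0.0285), and LeuR, at 1.80-fold, had an adjusted p of 0.0548 (all edgeR). The LeuR value passed with DESeq2 (0.0197), with filterByExpr (0.0466) and with both sexes in 1 fit (0.0281), and without Control library 4 (0.0219) or LeuR library 21 (0.0139). The ValR call was made in 9 of the 14 fits without 1 library and was lost without Control library 1 or 3 or ValR library 7, 9 or 10, with adjusted p up to 0.0852. Without IleR library 14 the IleR value had an adjusted p of 0.0502. Mthfd1, the cytosolic enzyme (ENSMUSG00000021048, chr12:76255298-76319803), was at 37.2, 41.7, 41.1 and 44.4 CPM in Control, 48.2, 51.1 and 54.0 CPM in IleR, 55.3, 50.3 and 46.1 CPM in LeuR and 52.0, 53.3, 57.9 and 53.4 CPM in ValR. All 10 restricted-diet males were above all 4 Control-fed males. The rise was small and had a narrow interval: 1.24-fold in IleR (1.09 to 1.42, adjusted p = 0.0272), 1.23-fold in LeuR (1.08 to 1.40, adjusted p = 0.0454) and 1.32-fold in ValR (1.17 to 1.49, adjusted p = 0.00330). The IleR call was made in 10 of the 14 fits that left out a library (adjusted p up to 0.128), and it was lost with only the groups compared (0.0515) and with both sexes in 1 fit (0.0604). The LeuR call was made in 2 of the 14 fits, with adjusted p up to 0.200, and it was lost with limma voom (0.0511), with no filter (0.0653), with both sexes in 1 fit (0.0520) and with only the groups compared (0.154). With the hindbrain score in the fit of males Mthfd2 had log2 fold changes of -0.38 ± 0.35 in IleR, -0.31 ± 0.27 in LeuR and -0.95 ± 0.38 in ValR, and Mthfd1 lay between -0.0038 and 0.073 under the 3 diets.

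Srr, the serine racemase gene (ENSMUSG00000001323, chr11:74906359-74925948), fell in males under every restricted diet. It was at 109, 102, 65.2 and 93.2 CPM in Control-fed males, 44.0, 42.3 and 43.4 CPM in IleR, 38.8, 49.3 and 53.1 CPM in LeuR and 41.0, 35.8, 42.2 and 45.6 CPM in ValR. The lowest Control value was that of library 4, which also had the highest hindbrain score of the Control males, and it still lay above all restricted-diet males. The fold was 0.468 in IleR (95% interval 0.369 to 0.595, adjusted p = 0.00130), 0.510 in LeuR (0.402 to 0.647, adjusted p = 0.00503) and 0.446 in ValR (0.358 to 0.555, adjusted p = 0.000185, all edgeR). With only the LeuR and Control males in the fit, the LeuR value had an adjusted p of 0.0763. The log2 fold changes of Srr were -0.24 ± 0.27, -0.38 ± 0.21 and -0.20 ± 0.30 once the hindbrain score entered the fit of males.

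Gldc, the glycine decarboxylase gene (ENSMUSG00000024827, chr19:30098447-30175429), was lower in restricted-diet males with a wide spread. It was at 40.0, 51.5, 21.1 and 32.5 CPM in Control, 14.0, 12.4 and 25.1 CPM in IleR, 9.94, 17.3 and 12.1 CPM in LeuR and 19.5, 11.1, 22.6 and 24.9 CPM in ValR. The LeuR group was wholly below Control, and Control library 4 lay among the IleR and ValR values. Gldc fell to 0.360-fold in LeuR (95% interval 0.212 to 0.609, adjusted p = 0.0209 in edgeR). This call was made in 11 of the 14 fits without 1 library. With only the LeuR and Control males in the fit it was lost (adjusted p = 0.0824 in edgeR). The IleR value, 0.472-fold, had an adjusted p of 0.05003 and the ValR value, 0.539-fold, one of 0.0558. With DESeq2 both passed, at 0.0114 and 0.0224. The IleR value also passed with limma voom (0.0371), filterByExpr (0.0449), no filter (0.0474) and RLE scaling (0.0462). The ValR value passed with only the groups compared (0.0494 in edgeR). Of the 14 fits without 1 library, 5 made the IleR call and 2 the ValR call. Its log2 fold changes were -0.38 ± 0.87 in IleR, -0.97 ± 0.68 in LeuR and -0.10 ± 0.95 in ValR with the hindbrain score in the fit of males. The transporter Slc1a4 was at 74.8 to 80.9 CPM in Control, 53.8 to 93.2 CPM in IleR, 74.2 to 104 CPM in LeuR and 49.4 to 75.8 CPM in ValR, and was not called against Control (adjusted p between 0.103 and 0.847 in edgeR). Its log2 fold change in ValR was -0.39, and it passed at -0.40 with only the groups compared (adjusted p = 0.0471) and at -0.53 without ValR library 9 (adjusted p = 0.0312). The log2 fold change of Slc1a4 was 0.14 ± 0.40 in IleR, 0.34 ± 0.30 in LeuR and -0.16 ± 0.43 in ValR with the hindbrain score in the fit of males.

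**Figure D2:**
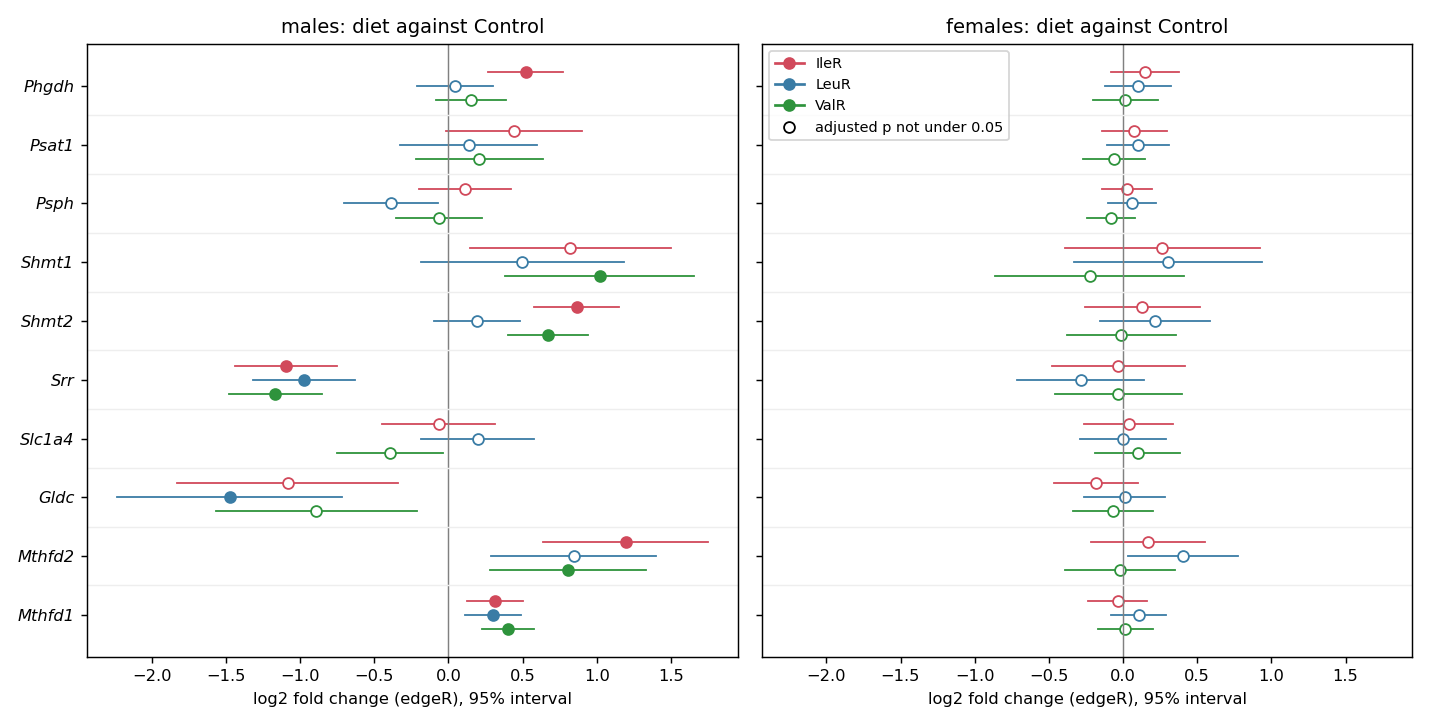
Log2 fold change of each member against the Control diet of the same sex with its 95% interval (x axis), in males (left) and females (right), by diet; filled points have an adjusted p under 0.05 in edgeR. In males Srr lies between -1.17 and -0.97 and Mthfd1 between 0.30 and 0.40 under the 3 diets, and in females the 30 values lie between -0.29 and 0.40 with no filled point.

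Between the restricted diets no member was called in males by edgeR. Unadjusted p was under 0.05 for 3 members in ValR against LeuR, for 1 in ValR against IleR and for 3 in IleR against LeuR. Such a p was held by 5294, 628 and 2512 of all 22197 genes in these pairs. After adjustment 1.73% of all genes rose and 1.03% fell in ValR against LeuR, and 0% passed in either direction in both other pairs. DESeq2 called Shmt2 and Slc1a4 in ValR against LeuR, Shmt2 in IleR against LeuR and no member in ValR against IleR, and limma voom called no member in any pair. The change of Phgdh in IleR but not in LeuR or ValR is therefore not shown to differ between those diets.

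In females no member was called under any diet by edgeR, DESeq2 or limma voom, and 0% of all 20344 genes rose or fell against Control in each diet by edgeR. Among the members 1 value of 30 had an unadjusted p under 0.05, against 577, 820 and 777 of all 20344 genes in IleR, LeuR and ValR. The value was that of Mthfd2 in LeuR, at 1.32-fold (95% interval 1.02 to 1.71, adjusted p = 0.968 in edgeR). In the test of any difference among the 4 diets 0 members passed, against 0.0197% of all genes. Srr ran from 49.5 to 102 CPM with a median of 92.2 CPM in Control-fed females, from 53.9 to 103 CPM with a median of 82.4 CPM in IleR, from 42.9 to 89.4 CPM with a median of 76.9 CPM in LeuR and from 55.1 to 113 CPM with a median of 83.9 CPM in ValR. The 4 groups overlapped almost fully, and each held at least 1 library as low as 55.1 CPM. The interval of the fold of Srr in ValR-fed females, 0.727 to 1.32, left out the fold of 0.446 seen in males. Phgdh in IleR-fed females ran from 58.2 to 83.9 CPM with a median of 69.3 CPM, against 52.8 to 69.7 CPM with a median of 61.5 CPM in Control. Its fold of 1.11 had an interval of 0.944 to 1.30, which overlaps the male interval of 1.21 to 1.71. The direct test of the sexes given below did not pass for Phgdh in IleR (log2 difference 0.37 ± 0.18, adjusted p = 0.246 in edgeR).

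The difference between the sexes was tested directly in a fit of all 37 libraries. It passed for Srr in ValR, where the log2 fold change was lower in males than in females by 1.15 ± 0.29 (adjusted p = 0.0267 in edgeR), against 4.25% of all genes. This difference was -0.10 (adjusted p = 0.943) with the hindbrain score as a covariate. It passed for no member in IleR or LeuR, where 0.0979% and 0.00445% of all genes passed. There, 6 and 3 members had an unadjusted p under 0.05 in edgeR, as did 4280 and 2911 of all 22465 genes. DESeq2 called Srr and Mthfd2 in IleR and Gldc in LeuR, while limma voom called none. For ValR, DESeq2 called Shmt1, Srr and Mthfd1 and limma voom called no member.

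The level of several members followed the hindbrain score within the females, where the diets did not separate on it. Over 23 libraries, which also differed in depth, the Pearson correlation of log2 CPM with the score was -0.92 for Srr (Spearman's rho -0.83), 0.81 for Shmt2 (0.72), 0.76 for Mthfd1 (0.61), 0.70 for Mthfd2 (0.67) and 0.64 for Shmt1 (0.49). It was -0.71 for Slc1a4 and -0.43 for Gldc. For the serine route proper it was weak, at -0.05 for Phgdh, -0.22 for Psat1 and -0.26 for Psph. Without the 2 libraries farthest from the median score it was -0.87 for Srr, 0.69 for Shmt2, 0.63 for Mthfd1 and 0.56 for Mthfd2. It was then 0.46 for Shmt1, -0.54 for Slc1a4 and -0.55 for Gldc, and -0.13, -0.25 and -0.31 for Phgdh, Psat1 and Psph. LeuR library 45, the female with the highest score (3.35), had 42.9 CPM of Srr, 39.6 CPM of Shmt2 and 54.8 CPM of Mthfd1, values inside or next to the ranges of the ValR-fed males. An astrocyte score was formed as the mean log2 CPM of 12 astrocyte genes minus that of 8 neuronal genes. Over the same females its correlations were -0.90 for Srr, 0.87 for Mthfd1, -0.69 for Slc1a4, 0.64 for Shmt1 and 0.59 for Mthfd2. They were 0.58 for Shmt2, 0.33 for Phgdh, -0.27 for Gldc, -0.20 for Psph and 0.09 for Psat1. The 2 scores were not independent measures. LeuR library 45 had the highest female value of both (3.35 and -0.76), and IleR library 39 had -8.18 and -2.06. LeuR library 44, at -7.74 and -1.16, departed from this.

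**Figure D3:**
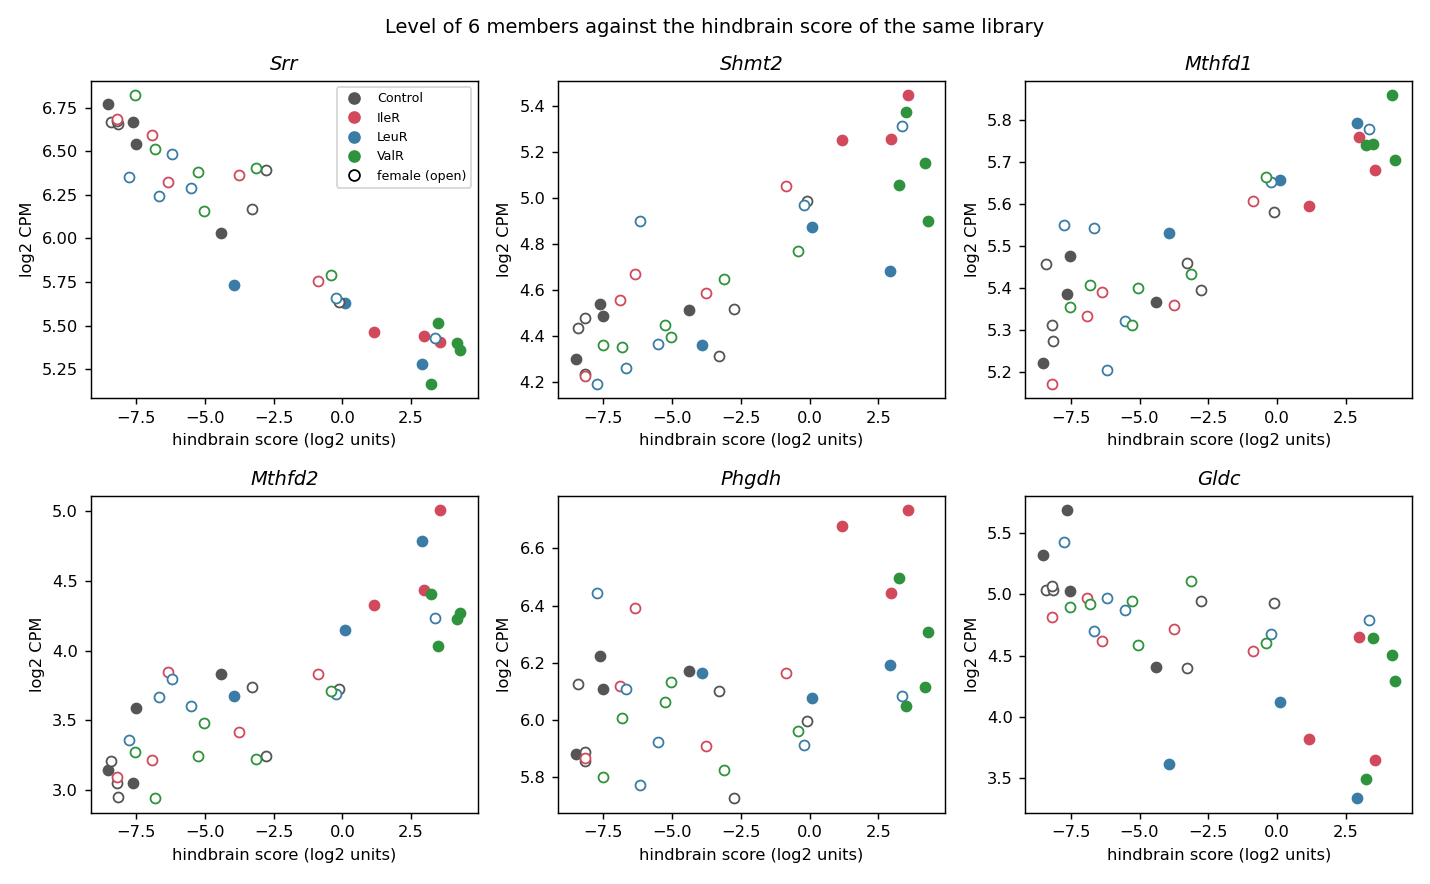
Log2 CPM (y axis) of 6 members against the hindbrain score of the same library in log2 units (x axis), 1 point per library, coloured by diet, males filled and females open. Srr falls along the score in both sexes, Shmt2, Mthfd1 and Mthfd2 rise, and Phgdh shows no trend in females (r = -0.05) while the 3 IleR-fed males lie near or above the highest values.

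With the score as a covariate in the fit of males, 0 members were called under any of the 3 diets, but there the score and the diet hardly overlap. In the fit of all 37 libraries the females also set the slope. There the values of the serine route moved by at most 0.10 with the score, whereas those of Psat1 reversed in the fit of males. The values of Srr, Shmt2, Mthfd1 and Mthfd2 became smaller, except Shmt2 in LeuR, which went from 0.21 to -0.27. The fit of all 37 libraries was chosen after the data had been seen. LeuR library 45, at 3.35, was the only female with a score above -0.10. At the scores of the IleR-fed and ValR-fed males (1.16 to 4.28) the female levels thus rest on 1 library, and 1 slope was taken for both sexes. Without the score the log2 fold change of Srr in that fit was -1.09 in IleR, -0.95 in LeuR and -1.18 in ValR, and with the score it was -0.11 ± 0.14 (SE), -0.26 ± 0.13 and -0.07 ± 0.14. Shmt2 went from 0.86 to 0.18 in IleR and from 0.65 to -0.11 in ValR, and Mthfd1 from 0.31 to -0.01 in IleR and from 0.38 to 0.02 in ValR. Mthfd2 went from 1.19 to 0.41 in IleR, from 0.86 to 0.28 in LeuR and from 0.79 to -0.07 in ValR. Shmt1 went from 0.99 to -0.05 in ValR. The calls made for these without the score were lost with it. Phgdh in IleR was at 0.52 without and 0.55 with the score, but its adjusted p rose from 0.0194 to 0.340, and Psat1 was at 0.44 and 0.45. Psph went from 0.11 to 0.20 in IleR and from -0.08 to 0.02 in ValR. In LeuR it went from -0.36 (adjusted p = 0.0379 in edgeR) to -0.30 (0.140), and Slc1a4 from 0.22 to 0.53. Gldc in LeuR was at -1.44 without and -1.19 with the score and was the only member called with it (adjusted p = 0.0135 in edgeR). In IleR it went from -1.09 (adjusted p = 0.0123) to -0.72 (0.422) and in ValR from -0.91 (0.00764) to -0.49 (0.707). Whether the score or the diet underlies these values, that of Gldc in LeuR included, was not tested.

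**Figure D4:**
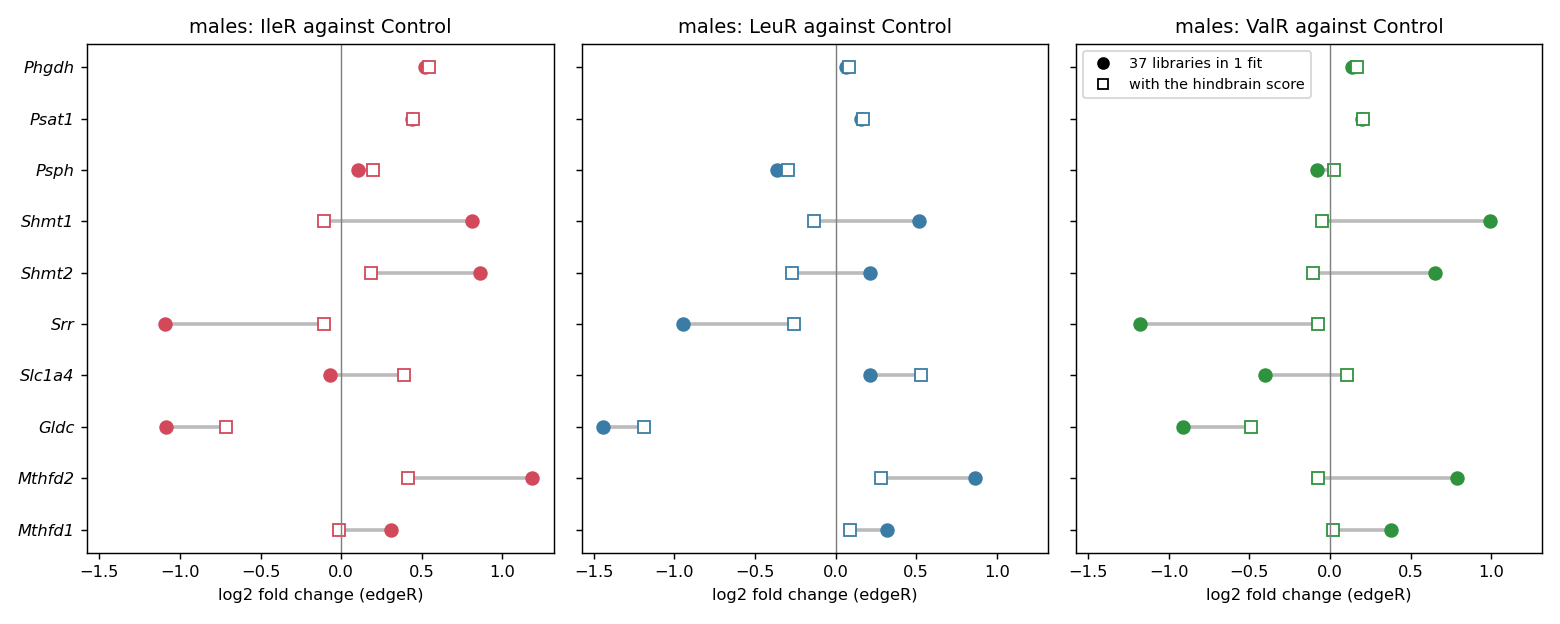
Log2 fold change of each member in males against Control (x axis) from the fit of all 37 libraries, without (filled circles) and with (open squares) the hindbrain score as a covariate, by diet. Phgdh, Psat1 and Psph move by at most 0.10, and Srr moves from between -1.18 and -0.95 to between -0.26 and -0.07.

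The astrocyte score moved with the male diets as well. It lay between -1.69 and -0.97 in Control-fed males and between -0.82 and -0.65 in IleR, -1.04 and -0.80 in LeuR and -1.01 and -0.60 in ValR. Of the 12 astrocyte genes 4, 3 and 6 rose and 1 fell in each diet. Their summed level was 5397 to 6578 CPM in Control, 6358 to 7196 CPM in IleR, 4647 to 7231 CPM in LeuR and 6736 to 7769 CPM in ValR, and none was at 0. With this score as a covariate in the fit of males 0 members were called, while some log2 fold changes stayed about as large: Shmt2 was at 0.90 ± 0.24 in IleR and 0.70 ± 0.22 in ValR, and Mthfd1 at 0.30 ± 0.16, 0.29 ± 0.13 and 0.39 ± 0.14 in IleR, LeuR and ValR. Others became smaller: Srr was at -0.54 ± 0.22, -0.57 ± 0.18 and -0.66 ± 0.20, Mthfd2 at 0.80 ± 0.42 in IleR and 0.44 ± 0.39 in ValR, Phgdh at 0.39 ± 0.21 in IleR, and Gldc at -0.29 ± 0.59, -0.92 ± 0.46 and -0.18 ± 0.54.

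Some members varied together among females. With the diet means subtracted, Phgdh and Psat1 had a correlation of 0.78 over 23 libraries, while Phgdh and Shmt2 had -0.13. Shmt2 with Mthfd2 had 0.68 and Shmt1 with Mthfd1 0.67, and Srr ran opposite to Mthfd1 at -0.83 and to Mthfd2 at -0.78. Among 11022 genes, those most like Phgdh were Lap3 (0.90), Gatm (0.88), Rhog (0.87), Prdx1 (0.86) and Cldn11 (0.85), and those most like Psat1 were Cldn11, Prr18, Frmd4b, Enpp4 and Trim59 (0.87 to 0.85). Cldn11 encodes a tight junction protein of myelin, and the 8 oligodendrocyte genes summed to between 3190 and 12674 CPM across females. In males their sum was 4807 to 10016 CPM in Control, 10600 to 15480 CPM in IleR, 6741 to 18634 CPM in LeuR and 9842 to 16969 CPM in ValR, so IleR lay wholly above Control, and none of the 8 was called by edgeR or was at 0 throughout a group. The part of this shift in the values of Phgdh and Psat1 in males was not tested. Those most like Gldc were Smad3, Shank3, Tpst2, Surf4 and Map4k5 (0.83 to 0.81).

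Some of the other genes of the pathways were called in the same male diets. Of 63 tested genes in 4 lists of folate, glycine, serine and methionine metabolism, 11 rose and 3 fell in IleR, 6 rose and 2 fell in LeuR and 15 rose and 2 fell in ValR by edgeR. As shares of 63 these are to be read beside the 6.63% of all genes that rose and 8.68% that fell in IleR, 3.81% and 6.33% in LeuR, and 11.1% and 12.4% in ValR. The median log2 fold change of these genes was 0.15, 0.21 and 0.14, against 0.04, 0.05 and 0.03 over all genes. With the hindbrain or the astrocyte score as a covariate in the fit of males 0 of the 63 were called under any diet. In females 0 of 59 were called in each diet by edgeR. There 1 value, that of Mtfmt in LeuR, had an unadjusted p under 0.05, as did 820 of all 20344 genes.

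In the folate list of 19 tested genes 4 rose in IleR and in ValR and none in LeuR. Aldh1l2, the mitochondrial formyltetrahydrofolate dehydrogenase, went from 7.50 ± 2.01 CPM in Control (SD, n = 4) to 23.8 ± 3.15 in IleR (n = 3) and 18.5 ± 5.79 in ValR (n = 4), with 12.7 ± 3.49 in LeuR (n = 3). Its log2 fold change was 1.66 ± 0.26 in IleR and 1.30 ± 0.25 in ValR (adjusted p = 0.00166 and 0.00228 in edgeR). Mthfd1l, which makes formate in mitochondria, Fpgs and Ggh, which add and remove the glutamate tail of folates, rose by 0.54 to 0.62 in both diets. The folate genes that rose thus included the mitochondrial enzymes next to Shmt2 and Mthfd2.

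In the glycine list of 12 genes Gnmt, glycine N-methyltransferase, rose in males in all 3 diets. It went from 0.29 ± 0.21 CPM in Control to 1.93 ± 0.84 in IleR, 1.50 ± 0.99 in LeuR and 2.91 ± 0.48 in ValR. In females Gnmt ran from 0 to 2.53 CPM in Control and from 0.19 to 3.09 CPM in LeuR. Sardh, sarcosine dehydrogenase, rose in ValR (log2 fold change 0.41 ± 0.14, adjusted p = 0.0456 in edgeR) and had 0.33 in IleR and 0.38 in LeuR without passing. Gcsh, a partner of Gldc in glycine cleavage, had log2 fold changes of 0.24, 0.37 and 0.14 and did not pass, and Gatm, which uses glycine for creatine, had 0.51, 0.46 and 0.39 without passing. Their values were positive where those of Gldc were negative.

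In the list of serine use and transport, with 20 genes, 4, 4 and 5 rose and 2, 1 and 1 fell in IleR, LeuR and ValR. Dao, the D-amino acid oxidase that degrades D-serine, was at 0 to 0.95 CPM in Control-fed males and at 16.6 to 32.3 CPM in IleR, 0 to 20.0 CPM in LeuR and 23.1 to 41.0 CPM in ValR. It was also at 0 to 47.2 CPM in females of all diets, and its level is known to be high in cerebellum and brainstem. In males Dao passed the filter on low counts only through IleR and ValR, as Control and LeuR each held a library at 0. Slc6a9, the glycine transporter GlyT1, rose from 74.2 ± 27.7 CPM to 179 ± 21.9 in IleR, 184 ± 54.0 in LeuR and 180 ± 18.6 in ValR. Slc38a1, a glutamine and serine carrier, rose by 0.79 ± 0.14 in IleR and 0.77 ± 0.13 in ValR on the log2 scale. Sfxn3, a mitochondrial serine carrier, fell in all 3 diets, with log2 fold changes of -0.63, -0.55 and -0.68 (adjusted p between 0.000305 and 0.00811 in edgeR).

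In the methionine list, with 12 tested genes, Mat2b, the regulatory subunit of methionine adenosyltransferase, fell in all 3 diets, with log2 fold changes of -0.60, -0.68 and -0.47. Gclm and Gss, of glutathione synthesis, rose in IleR (0.62 and 0.60) and in ValR (0.66 and 0.54). Cbs, which joins serine to homocysteine, rose in LeuR (0.35 ± 0.10) and ValR (0.38 ± 0.10) and had 0.30 ± 0.10 in IleR without passing (adjusted p = 0.0652 in edgeR).

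The amino acid response was described by a separate list. Of 15 genes known as ATF4 targets or partners, 6 rose in IleR, none changed in LeuR, and in ValR 1 rose and 1 fell by edgeR. Of all genes 6.63% rose and 8.68% fell in IleR, 3.81% and 6.33% in LeuR and 11.1% and 12.4% in ValR. The median log2 fold change of the list was 0.35, -0.03 and 0.03, against 0.04, 0.05 and 0.03 over all genes. Atf5 went from 34.0 ± 2.95 CPM in Control to 61.1 ± 10.5 in IleR, with 30.1 ± 4.84 in LeuR and 40.3 ± 5.44 in ValR. Pycr1, of proline synthesis, went from 1.70 ± 0.50 to 3.65 ± 0.15 CPM in IleR, and Asns, asparagine synthetase, from 96.4 ± 5.05 to 130 ± 20.2 CPM (log2 fold change 0.43 ± 0.11, adjusted p = 0.0196 in edgeR). Slc7a11, the cystine carrier, fell in ValR from 57.0 ± 8.27 to 32.3 ± 5.26 CPM (adjusted p = 0.00183) and stood at 56.5 ± 6.13 CPM in IleR. In females 0 genes of the list were called by edgeR, and its median log2 fold change was 0.14 in IleR, 0.24 in LeuR and -0.06 in ValR. Atf5 was at 29.6 ± 3.95 CPM in Control-fed females, 39.8 ± 10.9 in IleR, 39.4 ± 3.78 in LeuR and 28.7 ± 2.29 in ValR. By edgeR 0 genes passed between IleR and LeuR or between IleR and ValR in males, where DESeq2 called 107 and 7, so by edgeR the counts of this list are not shown to differ between those diets. The part of the hindbrain score in these values was not tested.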

How the data were processed

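RNA from the left hemisphere of the brain, per the study's methods, was sequenced by the authors, who aligned reads to GRCm38.p5 and deposited expected counts per Ensembl gene, males and females in separate tables. The methods state that clear outliers were removed after a principal component analysis, and whether this accounts for the 10 male libraries not analysed here is not given in the sources used here. The aligner's version is not given in the sources used here. The extraction text of the labels names liver and a total RNA kit, and another label names polyA enrichment. The submitters' processing notes name R 3.4.3, edgeR and limma. The deposited expected counts, of which 4.14% were not whole, were rounded. The authors' own tables of log2 fold changes and p-values were not used.

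Genes were kept where all libraries of some diet group had 1 count or more, counts were scaled by TMM, and the 4 diets of a sex were fitted together with edgeR 4.0.16 (R 4.3.3) by glmQLFit and glmQLFTest, with the Benjamini-Hochberg adjustment over all genes and a threshold of 0.05. The diet-by-sex test used 8 groups and 37 libraries. DESeq2 1.42.0, limma 3.58.1 (voom), other scalings, filters and sample sets, and both composition scores as covariates were tried as alternatives, and the code was tested on simulated data. CPM are TMM-scaled, and log2 CPM used a prior count of 2. Gene models came from GENCODE M21 and start sites from RefSeq. The labels do not tie libraries to animals, while the study's legends count its groups in mice, and libraries were taken as separate mice. Their 73 within-group pairs all differed beyond counting noise (chi-square per degree of freedom at least 8.43).

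The 10 members and all gene lists were chosen with earlier results of these data known. All 10 members are named in the text. Per pathway list the 4 genes with the smallest adjusted p in the male test of any difference were described, and other list genes that are named were chosen after their values were seen. For Phgdh, Psat1 and Gldc the 5 genes with the highest Pearson correlation over the 23 females, after subtraction of diet means and at a mean log2 CPM of at least 3, were named. The pseudogene Phgdh-ps1 had at most 4 counts in a library, and the strand setting of the counting is not given in the sources used here.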

Additional observations from a re-analysis of the deposited data

Results flagged for a closer look

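Among 60 sets of a member in a group of 4 to 6 libraries, 7 held a library whose distance to its nearest neighbour, relative to the range of the group, was beyond Dixon's 95% critical value. Chance gives about 1 in 20. For Psat1 these were ValR male library 9 at 196 CPM (the next was 133 CPM), LeuR female library 44 at 160 CPM (next 113 CPM) and ValR female library 31 at 81.3 CPM (next 107 CPM). For Gldc they were Control female library 27 at 21.0 CPM (next 30.4 CPM) and LeuR female library 44 at 42.9 CPM (next 31.3 CPM), so library 44 was high for both genes. For Shmt2 Control female library 30 stood at 31.6 CPM (next 22.7 CPM) and for Mthfd1 ValR female library 36 at 50.5 CPM (next 43.1 CPM). Libraries 30 and 36 had the highest hindbrain score of their groups, at -0.10 and -0.41.

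In the diet-by-sex test of ValR in edgeR, 1 of the 10 members, Srr, passed. So did 2 of 63 genes of the 4 metabolic lists and 2 of 15 of the ATF4 list, against 4.25% of all genes. The log2 fold change in males minus that in females was -1.15 for Srr (adjusted p = 0.0267) and -0.66 for Sfxn3 (0.0345). It was 0.66 for Gclm (0.0329), 0.88 for Ddit4 (0.0354) and -1.34 for Slc7a11 (0.00785). For Srr the hindbrain score moved with the same groups, at 3.24 to 4.28 in ValR-fed males, -8.51 to -4.40 in Control-fed males and -8.41 to -0.10 in Control-fed females. Its part in the difference between the sexes was tested only as a covariate, where the value of Srr was -0.10 (adjusted p = 0.943) and no member was called. The part of the score in the values of Sfxn3, Gclm, Ddit4 and Slc7a11 was not tested.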

How the results depend on the processing

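The lowest count was 14 for Shmt1 and at least 106 for every other member, and the part of depth in the values of Shmt1 was not tested. In males 3 or 4 libraries stood for each diet, and the hindbrain score separated Control-fed from all other males. A covariate that nearly repeats the diet leaves little to estimate, so a call lost with it does not show that the diet had no effect. A change of sign of a single gene was counted where a call was involved or the value moved by more than 1 SE. No paired analysis was possible because every library number in the labels is used once. No female member was called under any setting run.

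With the hindbrain score or the astrocyte score as a covariate in edgeR, 0 members were called in males in IleR, LeuR, ValR and the test of any difference, and 0 pathway genes in each of the 3 diets. With both sexes in 1 fit and the hindbrain score, an alternative chosen after seeing the data, 0, 1 and 0 members and 0, 1 and 0 pathway genes were called in IleR, LeuR and ValR. Without the score that fit called 7 pathway genes in IleR. Where only the groups compared entered, 0 members and 0 pathway genes were called in LeuR. For pathway genes in LeuR DESeq2 called 16 and limma voom 5. DESeq2 called 1 member between IleR and LeuR and 2 between ValR and LeuR. In the diet-by-sex test DESeq2 called 2 members under IleR, 1 under LeuR and 3 under ValR, and in the last the count was 0 with the hindbrain score, 0 with voom and 3 with only the groups compared.

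With the hindbrain score as a covariate the log2 fold changes against Control in males turned to -0.36, -0.48 and -0.70 for Psat1 and to -0.38, -0.31 and -0.95 for Mthfd2 in IleR, LeuR and ValR. They turned to -0.0038 for Mthfd1 in IleR, -0.023 for Shmt1 and -0.11 for Shmt2 in LeuR, and 0.14 for Slc1a4 in IleR. The diet-by-sex differences turned to -0.019 and -0.034 for Mthfd2 in LeuR and ValR, -0.44 and -0.29 for Shmt1 in IleR and LeuR, -0.070 for Shmt2 in ValR and 0.35 for Slc1a4 in IleR. With the astrocyte score Psph in ValR-fed males turned to 0.26, and the diet-by-sex differences in IleR to -0.19 for Shmt1 and 0.19 for Slc1a4. With both sexes and the hindbrain score in 1 fit, Shmt1 turned to -0.11, -0.13 and -0.053 in IleR, LeuR and ValR males, Shmt2 to -0.27 and -0.11 in LeuR and ValR, Mthfd2 to -0.074 in ValR, Mthfd1 to -0.012 in IleR, and Slc1a4 to 0.39 and 0.11 in IleR and ValR. The cause of these changes was not tested.

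With each library left out in turn, the members called in males ranged from 2 (without IleR library 14) to 7 (without Control library 4) in IleR, from 1 to 5 in LeuR and from 3 to 6 in ValR, and from 3 (without Control library 1) to 8 (without Control library 4) in the test of any difference. Between ValR and LeuR the count ranged from 0 to 1. In the diet-by-sex test it ranged from 0 to 3 for IleR, from 0 to 2 for LeuR and from 0 to 4 for ValR, each time highest without male Control library 4. Pathway genes ranged from 8 to 17 in IleR, from 3 (without LeuR library 19) to 16 in LeuR and from 12 to 20 in ValR. The log2 fold change of Psat1 in LeuR ranged from -0.16 (without LeuR library 19) to 0.38 in males and from -0.0050 (without LeuR library 44) to 0.15 in females, and its diet-by-sex difference from -0.25 to 0.28.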
